A study of Homo sapiens with 6 samples.

Results

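The MYC and MAX network is described here in NCI-H1975 cells, a human lung adenocarcinoma line, and in H1975/OSI, a derivative of it that acquired resistance to osimertinib. Osimertinib blocks the kinase of the epidermal growth factor receptor, EGFR. The members are 10 genes chosen by name, MYC, MAX, MXD1, MXD3, MXD4, MXI1, MNT, MGA, MLX and MLXIP, and each matched 1 of the 30330 genes in the deposited RNA-seq tables. The resistant line was derived by osimertinib steps of 0.03, 0.1, 0.3, 1 and 3 µM over 7 months, and 3 resistant libraries were compared with 3 libraries labelled as control NCI-H1975. Both groups share the cell line of origin, and the resistant group is 1 derived line. Whether osimertinib was present at harvest is not in the labels. They also leave out whether replicates were grown apart, and every p-value therefore speaks for the variation among these 6 libraries, possibly technical, and no further.

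Proteins of this network pair through a basic helix-loop-helix leucine zipper and bind the E-box CACGTG in promoters. MYC binds DNA as a dimer with MAX and raises transcription of genes for ribosome assembly, metabolism and cell division. MXD1, MXD3, MXD4, MXI1 and MNT also pair with MAX, recruit the SIN3 corepressor and repress many of the same genes. MGA brings MAX into a Polycomb complex called PRC1.6. MLX is the corresponding partner of MLXIP, also called MondoA, which responds to sugar phosphates, and MLX can also pair with MNT and some MXD proteins. MYC lies downstream of receptor and ERK signalling in many epithelial cancers.

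Recovered reads ranged from 15174126 to 16588479 per library. Resistant library 1 differed from its group. In chi-square divided by genes, it was 10.8 from resistant 2 and 12.1 from resistant 3, while resistant 2 and 3 were 2.32 apart and the control pairs 2.43 to 3.66 apart. The mitochondrial share of reads was 5.33% to 5.66% in resistant and 6.46% to 7.34% in control libraries. The 9 markers of lung adenocarcinoma epithelium summed to 40681 to 47451 normalized read counts in resistant and 58953 to 62262 in control libraries, nearly all of it keratins. The members of this list went different ways. The adhesion genes EPCAM and CDH1 averaged 17.6 and 116 in resistant against 379 and 368 in control libraries. The keratins KRT8, KRT18 and KRT19 averaged 16385, 7556 and 5874 in resistant against 23304, 10013 and 12960 in control libraries. The keratin KRT7 averaged 12803 against 13355. The lung lineage factor NKX2-1 averaged 461 against 287 and NAPSA 31.1 against 20.3, and the surfactant gene SFTPB was close to 0 in both groups. The 3 leukocyte markers in the files summed to at most 10.6 in any library. Of the 3 fibroblast markers in the files, COL1A2 averaged 29275 in resistant and 698 in control libraries, PDGFRB was at 76.1 to 144 in every library, and LUM was at 0 in controls. The endothelial list summed to 557 to 759 in resistant and 290 to 332 in control libraries. Of this list CDH5 averaged 579 in resistant and 126 in control libraries, PECAM1 83.3 and 181, and VWF and KDR were at 9.23 or less in every library. The part of these differences in the results below was not tested. In bulk RNA, fewer cells with a transcript and less of it per cell cannot be told apart, and the size-factor scaling leaves a change in total RNA per cell out of the values.

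Promoter letters of the network genes show which members carry the E-box that the network itself binds. RefSeq promoters on GRCh38.p14, from 250 bases before to 50 bases after a gene's start, were found for 9 of the 10 members, all but MYC. CACGTG, a palindrome and so the same on both strands, was present in 3 of these 9, and in 11.8% of the 12116 tested protein-coding genes with a promoter entry. It lay in the promoters of MXD4, MNT and MLX. The stretches below belong to 4 members whose RNA differed between the lines. Each ends at the base before the gene's start in the deposited tables, is read on the gene's strand, and has the E-box in capitals. They are chr17:42566850-42567067 on the plus strand for MLX, chr4:2262295-2262359 on the minus strand for MXD4, chr12:122078506-122078721 on the plus strand for MLXIP and chr5:177312758-177313002 on the minus strand for MXD3.
MLX: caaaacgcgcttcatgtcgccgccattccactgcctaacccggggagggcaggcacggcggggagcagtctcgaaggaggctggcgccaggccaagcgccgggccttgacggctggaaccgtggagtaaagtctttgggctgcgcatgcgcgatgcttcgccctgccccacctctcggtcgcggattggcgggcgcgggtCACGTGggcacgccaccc
MXD4: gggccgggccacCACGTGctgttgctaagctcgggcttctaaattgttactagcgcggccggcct
MLXIP: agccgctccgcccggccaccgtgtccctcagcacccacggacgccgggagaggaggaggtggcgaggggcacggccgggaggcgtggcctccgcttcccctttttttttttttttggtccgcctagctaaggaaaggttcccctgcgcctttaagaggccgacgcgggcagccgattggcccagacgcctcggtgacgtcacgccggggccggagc
MXD3: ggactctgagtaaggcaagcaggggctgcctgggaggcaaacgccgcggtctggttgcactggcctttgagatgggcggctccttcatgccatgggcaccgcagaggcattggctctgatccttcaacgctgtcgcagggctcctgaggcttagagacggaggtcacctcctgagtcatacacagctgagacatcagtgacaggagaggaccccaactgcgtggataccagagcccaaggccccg
The E-box is present in the windows of MLX, which was lower in the resistant line, and MXD4, which was higher. MNT, whose RNA did not pass the test, carries it at chr17:2401236-2401265 on the minus strand, 193 bases before its RefSeq start.
MNT: ccctgcccgggcCACGTGtgcgcgcgccgg
A match is a description of these letters and does not show that a protein was bound there.

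In the resistant line, MLXIP RNA rose to 1.97 times and MLX RNA fell to 0.486 times the control level, while MXD3 fell to 0.551 times, MXD4 rose to 1.31 times and MYC fell to 0.821 times. MAX, MXD1, MXI1, MNT and MGA did not pass the test. Of the 10 members, 2 were called higher and 3 lower by limma-trend at an adjusted p under 0.05 (Benjamini-Hochberg over 24560 genes). Over all genes tested, 20.4% were called higher and 21.1% lower, 41.5% in all. All members averaged above 100 normalized read counts, and among the 11230 genes at that level 63.1% were called, 28.1% higher and 34.9% lower. The members' share called, 5 of 10, therefore lay between these backgrounds, and their median log2 fold change was -0.02 against 0.01 over all genes tested. Groups did not overlap for 6 members, beside 50.1% of all genes tested and 70.1% of genes averaging 100 or more.

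**Figure D1:**
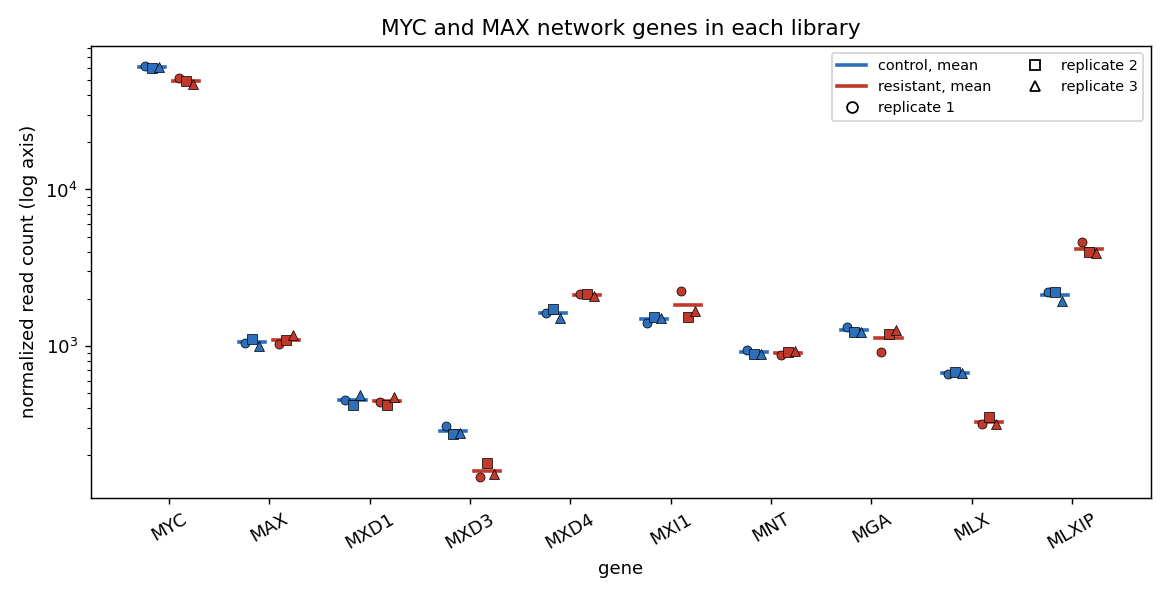
Normalized read counts (log axis) of the 10 network genes in each of 3 control (blue) and 3 resistant (red) libraries, with replicates as symbols and group means as lines. The groups are separated for MYC, MXD3, MXD4, MXI1, MLX and MLXIP, and resistant replicate 1 lies away from its group for MXI1 and MGA.

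MYC, the activator of the network, read 52029, 49483 and 47622 normalized read counts in resistant libraries 1 to 3 and 61230, 59594 and 60716 in control libraries 1 to 3. Every resistant library lay below every control library. It took 0.373% ± 0.00926 of all reads in control and 0.326% ± 0.00639 in resistant libraries (SD, n = 3 each). Its log2 fold change was -0.28 ± 0.06 SE (limma-trend adjusted p = 0.000215), within the middle 50% of genes at 100 or more. The size depended on the scaling, at -0.13 with quantile normalization (limma-trend adjusted p = 0.0162) and -0.42 with median centring. MYC (ENSG00000136997) lies on chromosome 8 from 127735434 to 127741434 and overlaps no other gene in the tables.

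The protein-coding genes with the profile most like MYC over the 6 libraries were HAUS1, H3-3A, PRMT1, NQO1 and AP3S1. Likeness was the Euclidean distance between log2 profiles centred on their means, which ran from 0.03 for HAUS1 to 0.06 for AP3S1, among 10653 genes compared. PRMT1, an arginine methyltransferase, averaged 3619 ± 53.8 in control and 2980 ± 137 in resistant libraries (SD, n = 3), and H3-3A, which encodes histone H3.3, 3786 ± 48.4 and 3120 ± 128. A lower level in the resistant line was built into this choice, so a test of these genes carries no weight.

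MYCL and MLXIPL, the other genes of the MYC and MLX branches in the files, were both called higher at low levels. MYCL, a MYC paralog, averaged 36.0 ± 6.01 in control and 70.7 ± 12.6 in resistant libraries (log2 fold change 0.95, limma-trend adjusted p = 0.000938). MLXIPL, which encodes the carbohydrate-response factor ChREBP, averaged 50.3 ± 12.5 and 98.4 ± 28.0 (0.95, adjusted p = 0.0015), a call lost with limma without trend (adjusted p = 0.0634). MYCN, on the same list, matched no deposited gene by symbol and so was not analysed here.

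MAX, the shared dimer partner, did not pass the test. MAX read 1020, 1084 and 1175 in resistant and 1042, 1111 and 998 in control libraries, and the groups overlapped. A log2 fold change of 0.06 was estimated, with a 95% interval of -0.10 to 0.21 (limma-trend adjusted p = 0.598). MAX (chromosome 14, 65006174 to 65102695) overlaps FNTB on the opposite strand over 56479 bases, and strand handling was not given in the sources used here. FNTB averaged 351 in resistant and 239 in control libraries.

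Among the MXD repressors, MXD3 and MXD4 changed in opposite directions. MXD3, which is expressed in dividing cells, read 145, 177 and 151 in resistant and 306, 274 and 279 in control libraries. All resistant values were below all control values, with a log2 fold change of -0.86 ± 0.12 SE (limma-trend adjusted p = 2.51e-06). MXD3 (ENSG00000213347, chromosome 5, 177301461 to 177312757) overlaps PRELID1 on the opposite strand, which itself averaged 777 in resistant and 1518 in control libraries, and RAB24 on the same strand. RAB24 averaged 128 in resistant and 111 in control libraries. Whether reads of PRELID1 or RAB24 entered the MXD3 values was not tested.

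MXD4 is a repressor usually linked to resting and differentiated cells. It read 2149, 2139 and 2076 in resistant and 1632, 1709 and 1514 in control libraries, again without overlap. The log2 fold change was 0.39 ± 0.07 SE (limma-trend adjusted p = 3.75e-05). MXD4 (ENSG00000123933, chromosome 4, 2247432 to 2262294) overlaps no other gene in the tables. The ratio of MXD4 to MXD3, each per kb of exon, was 8.82 to 10.8 in resistant and 3.89 to 4.55 in control libraries.

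MXD1, the founding member of the family, did not pass the test. Its values were 436, 415 and 471 in resistant and 449, 419 and 487 in control libraries, with a 95% interval of -0.22 to 0.16 for the log2 fold change. MXD1 overlaps SNRNP27 on the same strand over 7888 bases, a gene that averaged 188 in resistant and 261 in control libraries. Whether reads of SNRNP27 entered the MXD1 values was not tested.

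MXI1, a repressor that is also a hypoxia-induced gene, was high in 1 resistant library. It read 2236, 1539 and 1666 in resistant and 1410, 1529 and 1503 in control libraries, so that resistant 1 was the highest and resistant 2 lay just above the highest control. The log2 fold change was 0.27 with a limma-trend adjusted p of 0.0774. Without resistant 1 it was 0.11 (adjusted p = 0.141), while quantile normalization (0.35, adjusted p = 0.0181), DESeq2 (adjusted p = 0.0250), limma-voom (adjusted p = 0.0434) and the leaving out of resistant 2 (0.38, adjusted p = 0.00392) placed it past the threshold.

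MNT and MGA, the larger MAX partners, did not pass the test. MNT read 879, 913 and 924 in resistant and 941, 891 and 890 in control libraries. These ranges overlapped, and the 95% interval of the log2 difference was -0.15 to 0.15. MGA, which carries a T-box domain beside its MAX-binding domain and is listed as T-box in the deposited family column, read 917, 1183 and 1262 in resistant and 1326, 1233 and 1229 in control libraries. Resistant 1 was the lowest, and the log2 fold change moved from -0.18 (limma-trend adjusted p = 0.132) to -0.05 without it. MGA was called lower with median centring (-0.32, adjusted p = 0.0172) and without resistant 3 (-0.28, adjusted p = 0.0193).

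**Figure D2:**
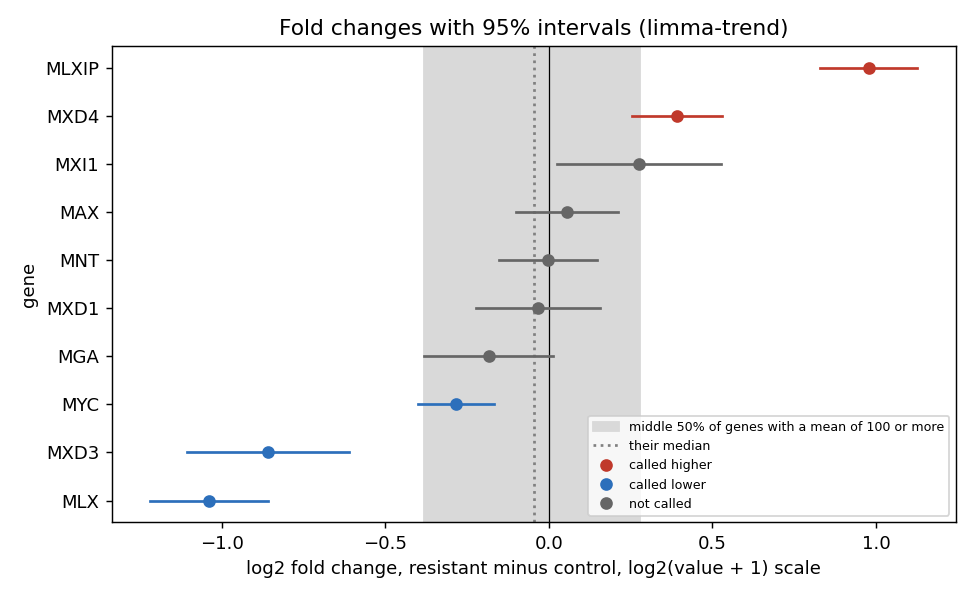
Log2 fold change (resistant minus control) of each network gene with its 95% interval from limma-trend, coloured by call, over the middle 50% of the 11230 genes averaging 100 or more (grey band, -0.38 to 0.28). MLX, MXD3, MXD4 and MLXIP have estimates outside the band, and the called MYC lies inside it.

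The MLX branch had the largest fold changes of the network, in opposite directions for its partners. MLX read 314, 349 and 316 in resistant and 657, 683 and 673 in control libraries, with no overlap. Its log2 fold change was -1.04 ± 0.09 SE (limma-trend adjusted p = 8.00e-10), and it was the 1 member called with an absolute log2 fold change of 1 or more, beside 13.6% of all genes tested. MLX (ENSG00000108788, chromosome 17, 42567068 to 42573239) overlaps PSMC3IP on the opposite strand over 925 bases, a gene that averaged 59.3 in resistant and 129 in control libraries. Whether reads of PSMC3IP entered the MLX values was not tested.

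MLXIP, the glucose-responsive partner, read 4594, 4006 and 3941 in resistant and 2215, 2202 and 1946 in control libraries. Every resistant value was above every control value, with a log2 fold change of 0.98 ± 0.07 SE (limma-trend adjusted p = 8.15e-11). MLXIP (ENSG00000175727, chromosome 12, 122078722 to 122147347) overlaps no other gene in the tables. Per kb of exon, MLXIP and MLX stood at 153 ± 10.9 and 158 ± 3.03 in control libraries, levels within 1 SD of MLXIP from each other. In resistant libraries they stood at 301 ± 25.9 and 76.6 ± 4.61 (SD, n = 3). The ratio of MLXIP to MLX was 1.03, 0.988 and 0.886 in controls and 4.48, 3.52 and 3.82 in resistant libraries.

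**Figure D3:**
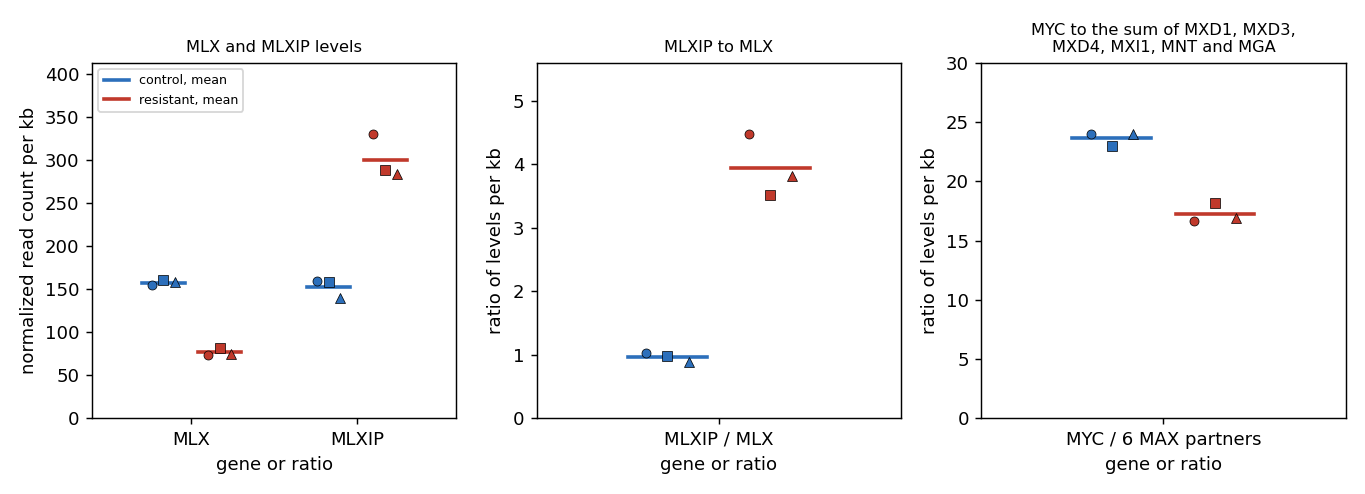
Left, normalized read counts per kb of exon for MLX and MLXIP. Middle, the ratio of MLXIP to MLX. Right, the ratio of MYC to the sum of 6 MAX partners. Symbols are libraries (replicate 1 circle, 2 square, 3 triangle) and lines are means, blue for control and red for resistant. The MLXIP to MLX ratio lies between 0.886 and 1.03 in controls and between 3.52 and 4.48 in resistant libraries.

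Compared per kb of exon, MYC exceeded every partner in both lines. In control libraries MYC stood at 20164 ± 279 normalized read counts per kb, followed by MXI1 at 321 ± 13.6. MAX at 237 ± 12.8 and MXD4 at 229 ± 13.9 came next and differed by less than their spread, as did MLX and MLXIP below them. MNT stood at 104 ± 3.34, MGA at 71.5 ± 3.09 and MXD1 at 71.1 ± 5.36, the last pair again within their spread, and MXD3 was last at 55.5 ± 3.34. In resistant libraries MXI1 at 394 ± 80.7 was again the first after MYC. MLXIP at 301 ± 25.9 and MXD4 at 301 ± 5.64 followed and differed by less than their spread, and MXD3 was again last at 30.6 ± 3.34. With the longest transcript as length, MXD4 came before MAX, and MXD3 before MGA and MXD1, in controls. The ratio of MYC to MAX per kb was 85.2 ± 5.44 in control and 67.5 ± 7.74 in resistant libraries. The sum of MXD1, MXD3, MXD4, MXI1, MNT and MGA per kb was 853 ± 11.2 in control and 961 ± 68.9 in resistant libraries, and MYC was 23.7 ± 0.603 and 17.3 ± 0.783 times that sum. These are RNA levels over annotated exon length, and they carry no test because they are scores over the members.

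Genes near some members on the chromosome moved with or against them. The 20 nearest tested protein-coding genes, 10 on each side, were counted. Of these, 16 were called lower around MXD3 (median log2 fold change -0.56) and 14 around MLX (-0.50). Over all genes tested, noncoding ones included, 21.1% were called lower and 20.4% higher. Among genes averaging 100 or more, these shares were 34.9% and 28.1%. Around MXI1, 16 of 20 were called lower (median -0.76), while MXI1 itself stood at 0.27. Around MLXIP, 3 were called higher and 2 lower (median -0.05), and around MYC 4 and 5 (-0.01). Around MAX, MXD1, MXD4, MNT and MGA, calls also went both ways, with 3 to 7 higher and 3 to 7 lower. The part of these neighbourhoods in the members' values was not tested. The deposited family column lists 9 members as bHLH. Of the other 48 tested genes in that family, 14 were called higher and 8 lower (median 0.05). Of these, 30 averaged 100 or more, and 12 of the 30 were called higher and 7 lower. At that level, 28.1% of genes were called higher and 34.9% lower.

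Genes known to be activated by MYC were mostly lower in the resistant line. Over 4 lists of such targets, 55 of 62 tested genes were called lower and 3 higher, with a median log2 fold change of -0.78, beside 21.1% lower over all genes tested and 34.9% among genes averaging 100 or more. Among the 3 higher calls was CCND2, with 0 reads in every control library, which passed the filter only through the resistant libraries. Without it, 55 of 61 were lower and 2 higher (median -0.80). The lists hold ribosome assembly, metabolism, cell cycle and mitochondrial genes and were written with earlier results of these data known.

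Ribosome assembly genes of the nucleolus were mostly lower. Of 31 such genes, 29 were called lower and 0 higher (median -0.88) by limma-trend, and 0 were higher at an unadjusted p under 0.05 or by DESeq2, edgeR or limma-voom. PPAN was called higher without control 1 and without resistant 3. NPM1, an abundant nucleolar chaperone, read 6629, 6110 and 6171 in resistant and 13657, 14342 and 14977 in control libraries. The groups were well apart, with a log2 fold change of -1.18 ± 0.06 SE (limma-trend adjusted p = 1.51e-13). NOLC1, a scaffold of ribonucleoprotein assembly, fell from 5063 ± 155 to 1955 ± 162, and TCOF1, which supports transcription of ribosomal DNA, from 2274 ± 193 to 840 ± 29.3 (SD, n = 3). The 2 members not called, chosen for mention after their values were seen, were PPAN (log2 fold change 0.32, adjusted p = 0.119), which overlaps P2RY11, and NOP2, which averaged 13.2 in control and 11.7 in resistant libraries. That level is low for NOP2, an essential ribosome assembly gene, and whether these values measure it fully was not resolved. P2RY11, which overlaps PPAN on the same strand over 97 bases, averaged 357 in resistant and 219 in control libraries. Whether its reads entered the PPAN values was not tested.

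Within 25 genes of this list that have a RefSeq promoter entry, 13 carry CACGTG in the 300-base window, or 52.0%, beside 11.8% of tested protein-coding genes. In 7 of these 13 the E-box lies within 14 bases of the RefSeq start, and all 7 are shown as 30 bases on GRCh38.p14 with the E-box in capitals. They are RRP9 (chr3:51941892-51941921, minus strand), WDR43 (chr2:28894658-28894687, plus strand), PES1 (chr22:30591880-30591909, minus strand), UTP20 (chr12:101280083-101280112, plus strand), FBL (chr19:39846356-39846385, minus strand), RCL1 (chr9:4792936-4792965, plus strand) and GNL3 (chr3:52686026-52686055, plus strand).
RRP9: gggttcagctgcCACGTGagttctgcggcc
WDR43: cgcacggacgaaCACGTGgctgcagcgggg
PES1: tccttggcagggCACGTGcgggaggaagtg
UTP20: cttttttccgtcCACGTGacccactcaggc
FBL: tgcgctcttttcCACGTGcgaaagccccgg
RCL1: cctgttccaaacCACGTGgacgcgtctggg
GNL3: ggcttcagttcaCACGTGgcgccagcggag
All 7 of these genes were called lower, with log2 fold changes of -1.43 for RRP9, -1.11 for WDR43, -0.90 for PES1, -0.81 for UTP20, -0.67 for FBL, -0.52 for RCL1 and -0.30 for GNL3. On the whole list, 29 of 31 genes were called lower, so calls of this kind were not particular to these genes. NOP2, which was not called, also carries CACGTG, 36 bases after its RefSeq start and outside the chosen distance. The distance was chosen after the values had been seen, and a link between motif and fold change was not tested. Among other lists, 3 of 5 cell cycle targets with an entry carry CACGTG and 0 of 4 genes repressed by MYC. For mitochondrial and chaperone targets it was 2 of 9, HSPD1 and HSPE1, which share the site. The target lists were chosen as known MYC targets, so their motif shares only describe the lists.

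Metabolic targets fell for 11 of 14 genes and rose for 2 (median -0.58). ODC1, the first enzyme of polyamine synthesis, fell from 3308 ± 131 to 1758 ± 214, and LDHA, lactate dehydrogenase A, from 62981 ± 1893 to 39108 ± 2701 (limma-trend adjusted p = 1.46e-09). DCTPP1, a nucleotide pyrophosphatase that overlaps ZNF771 on the opposite strand, had a log2 fold change of -1.03. The genes that rose were HK2, the hexokinase that starts glycolysis, from 3120 ± 182 to 4618 ± 849, and SLC29A2, a nucleoside transporter, from 233 ± 24.8 to 321 ± 15.6. HK2 read 5599, 4127 and 4130 in resistant libraries 1 to 3, and its log2 fold change was 0.55, or 0.41 without resistant 1. SHMT2, named after its value was seen, did not pass the test. The promoter windows of 8 of 10 genes with an entry hold CACGTG, those of ODC1, LDHA and HK2 among them, so the motif was present in genes that fell and in one that rose.
ODC1: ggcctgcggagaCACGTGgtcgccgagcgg
LDHA: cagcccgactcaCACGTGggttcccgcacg
HK2: gattgctgcgccCACGTGggagggagcccc
These lie at chr2:10447990-10448019 on the minus strand, chr11:18394464-18394493 on the plus strand and chr2:74834964-74834993 on the plus strand of GRCh38.p14. Each of these windows holds another CACGTG that is not shown. It lies 29 bases before the RefSeq start for ODC1, 185 for LDHA and 149 for HK2.

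Cell cycle targets fell for 7 of 8 genes (median -0.87, or -0.98 without CCND2). MCM4 and MCM5, subunits of the replicative helicase, had log2 fold changes of -1.58 and -1.17, and PLK1, a mitotic kinase, of -0.98. The remaining gene, CCND2, which encodes cyclin D2, had 0 reads in every control library and 3 to 7 in resistant libraries. Its mean of 5.48 ± 2.10 normalized read counts was at least 1.81-fold higher than a floor of 3 reads per control library, and its call carries no weight because the filter let it in through the resistant libraries alone. Mitochondrial and chaperone targets fell for 8 of 9 (median -0.76). PHB1, a prohibitin of the inner membrane, fell from 1991 ± 107 to 892 ± 45.4, and TBRG4, a mitochondrial RNA-binding protein, from 2664 ± 33.6 to 1370 ± 66.0. HSPD1, a mitochondrial chaperonin that overlaps HSPE1 and shares a promoter with it, had a log2 fold change of -0.93. SUPV3L1, singled out after its value was seen, was at 810 ± 29.7 in control and 806 ± 21.1 in resistant libraries.

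**Figure D4:**
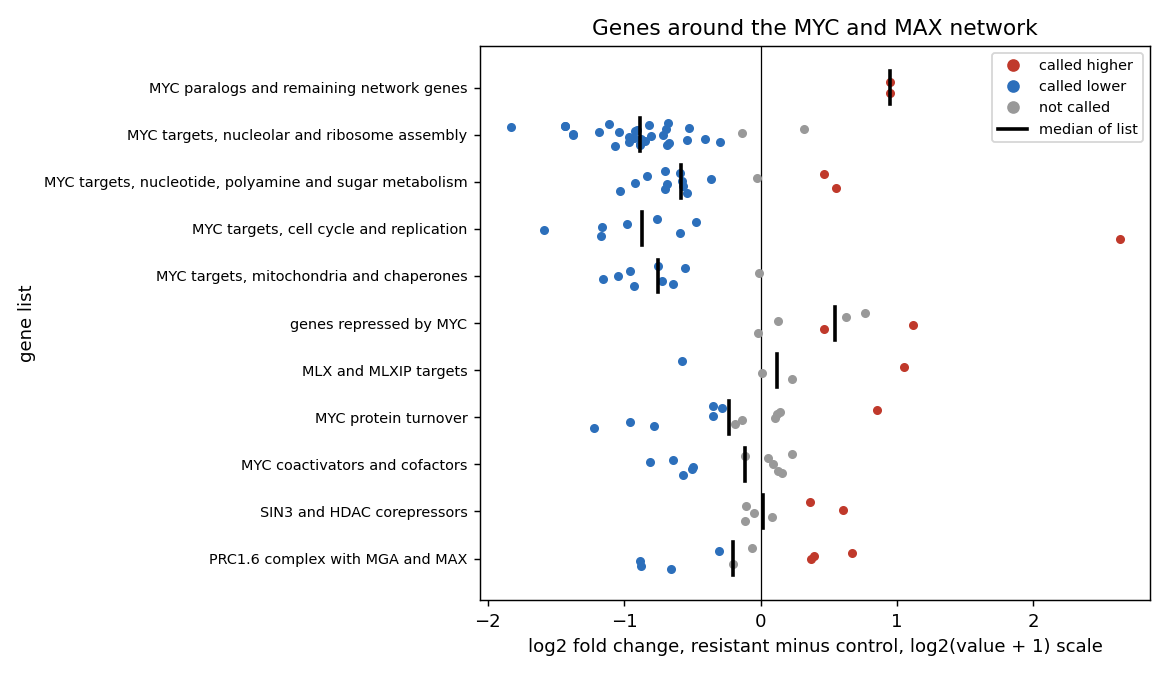
Log2 fold change (resistant minus control) of every tested gene in 11 lists around the network, coloured by call, with the median of each list as a black bar. The 4 lists of MYC targets have medians between -0.88 and -0.58, and the genes repressed by MYC have a median of 0.54.

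Of 6 genes known to be repressed by MYC, 2 rose and 0 fell by limma-trend, and 0 were lower at an unadjusted p under 0.05 or by DESeq2, edgeR or limma-voom. This share of higher calls was near the 28.1% of genes averaging 100 or more. CDKN2B, the CDK inhibitor p15, whose gene overlaps the antisense CDKN2B-AS1, rose from 220 ± 7.97 to 480 ± 59.2 (log2 fold change 1.11, limma-trend adjusted p = 6.07e-09), and CDKN1B, the CDK inhibitor p27, from 733 ± 24.5 to 1014 ± 67.5 (0.47, adjusted p = 2.19e-05). The next values were singled out after they had been seen. NDRG1, also a hypoxia-induced gene, read 39213, 19736 and 19455 in resistant and 14694, 15111 and 13877 in control libraries, and GADD45A read 2890, 1792 and 1659 against 1316, 1344 and 1327. Neither passed limma-trend with all 6 libraries, with adjusted p values of 0.147 for NDRG1 and 0.106 for GADD45A, while DESeq2 gave 0.0481 and 0.0301 and limma-voom 0.00187 and 0.00168. Without resistant 1, NDRG1 was called higher at 0.43 (adjusted p = 2.46e-11) and GADD45A at 0.38 (adjusted p = 1.82e-06), which brought the count for the list to 4, the same count as in DESeq2 and limma-voom. CDKN1A and CEBPA did not pass the test, with adjusted p values of 0.912 and 0.769 (limma-trend).

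Of 4 targets of the MLX and MLXIP pair, 1 was called higher, 1 lower and 2 were not called. These shares compare with 28.1% higher and 34.9% lower among genes averaging 100 or more. TXNIP, an inhibitor of glucose uptake and a direct target of MLXIP, read 7061, 7823 and 7868 in resistant and 11476, 11151 and 11204 in control libraries. It was lower in all 3 resistant libraries (log2 fold change -0.57 ± 0.06 SE, limma-trend adjusted p = 3.75e-08). ARRDC4, the relative of TXNIP that is also a direct target, averaged 264 ± 15.0 in resistant and 226 ± 15.6 in control libraries and did not pass the test (0.23, adjusted p = 0.107). PFKFB3, which makes the activator of phosphofructokinase and is also hypoxia-induced, rose from 2427 ± 33.0 to 5031 ± 125. KLF10 stood at 2145 ± 223 in resistant and 2125 ± 21.4 in control libraries. Of the 3 with a promoter entry, ARRDC4 and PFKFB3 carry CACGTG.

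Genes of MYC protein turnover fell for 6 of 12 and rose for 1 (median -0.23), beside 34.9% lower and 28.1% higher among genes averaging 100 or more. USP28, a deubiquitinase that counters the degradation of MYC, rose from 881 ± 9.29 to 1595 ± 51.5 (log2 fold change 0.86, limma-trend adjusted p = 3.42e-10). AURKA, a mitotic kinase that shields MYC proteins from degradation, fell from 1564 ± 57.2 to 673 ± 47.2. CIP2A, an inhibitor of the phosphatase PP2A, fell by 0.78, and FBXO32, a ubiquitin ligase subunit, by 0.96 on the log2 scale. RNA levels do not measure MYC protein, and no protein data were used here.

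The 3 lists of cofactors held calls in both directions between them. Of 11 MYC coactivators and cofactors, 5 fell and 0 rose (median -0.11) by limma-trend. At an unadjusted p under 0.05, 2 were higher, as were 1 by edgeR, 1 by limma-voom, 0 by DESeq2 and 3 with quantile normalization. The lower share compares with 34.9% among genes averaging 100 or more. The ATPases RUVBL1 and RUVBL2 fell from 1872 ± 58.9 to 1070 ± 86.6 and from 2439 ± 110 to 1562 ± 113, and HCFC1, a chromatin adaptor, fell by 0.50 on the log2 scale. RUVBL1 overlaps SEC61A1 on the opposite strand. Of 6 corepressor genes of the MXD and MNT proteins, SIN3B rose from 1777 ± 151 to 2284 ± 82.3 and SAP30 from 398 ± 9.34 to 619 ± 160. The call of SAP30 was lost with limma without trend (adjusted p = 0.0639). SAP30 read 803, 544 and 511 in resistant libraries 1 to 3, and its log2 fold change was 0.61, or 0.40 without resistant 1. In this list 0 genes fell by limma-trend, at an unadjusted p under 0.05 or by DESeq2, edgeR or limma-voom, and 2 were called lower with median centring. The higher share of the list was near the background of 28.1%. Of 9 PRC1.6 genes, which work with MGA and MAX, 4 fell and 3 rose, near the 34.9% and 28.1% of genes averaging 100 or more. PCGF6 and E2F6, subunits particular to that complex, had log2 fold changes of -0.88 and -0.88, and CBX3, which overlaps HNRNPA2B1, of -0.66. RYBP rose by a log2 fold change of 0.67, RING1 by 0.37 and RNF2 by 0.39, and RNF2 lost its call with median centring (0.26, adjusted p = 0.0723).

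**Figure D5:**
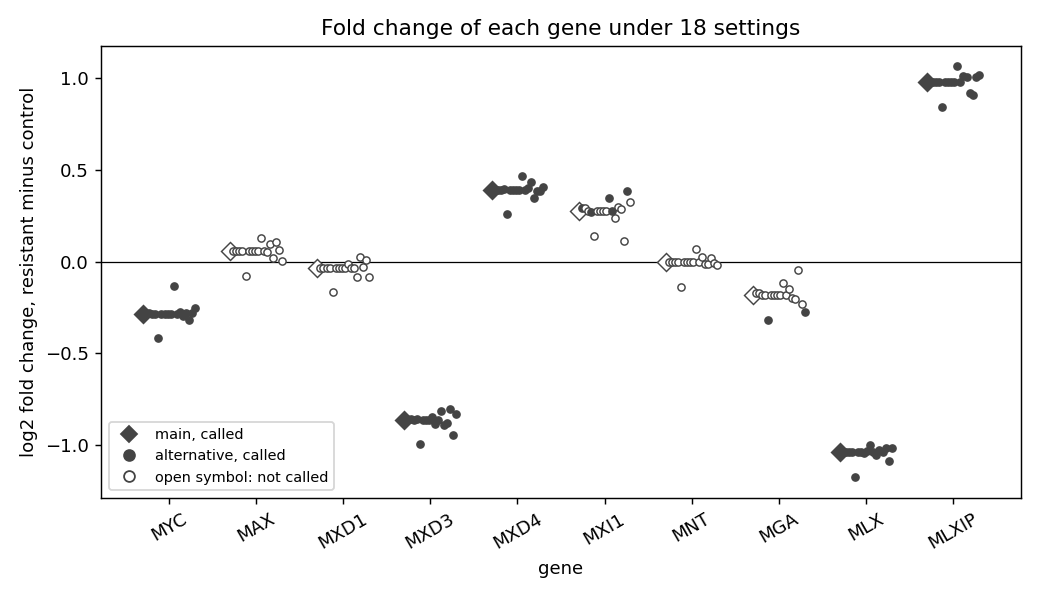
Log2 fold change (resistant minus control) of each network gene under 18 settings, with the main fit as a diamond, the alternatives as circles, and open symbols where the adjusted p was above 0.05. MYC, MXD3, MXD4, MLX and MLXIP are filled in every setting, while MXI1 and MGA change with the setting.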

How the data were processed

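RNA-seq of 6 libraries was analysed. The authors deposited 1 value per gene and library on a signal scale, and the submitters' processing notes name GRCh38. Which aligner, counter and scaling tool were used is not given in the sources used here. In each library 100% of values were whole multiples of 1 number within 0.001 reads, so the deposited signal is read counts divided by 1 size factor per library (normalized read counts), and whole reads were recovered by division. Gene symbols were looked up by Ensembl identifier.

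Values were taken as log2(value + 1), on which scale fold changes of low genes are understated. The filter asked for a value of 1 in 3 libraries and left 24560 genes. They were tested with limma-trend (limma 3.58.1, R 4.3.3, robust, no covariate), two-sided, and called at a Benjamini-Hochberg adjusted p under 0.05. The fit was checked on simulated data. The branch of the design for normalized values was the main one, and edgeR 4.0.16, DESeq2 1.42.0 and limma-voom on recovered reads were alternatives, beside quantile normalization, median centring, other filters and pseudocounts, a replicate block, limma with no trend and leaving out each library. With 3 against 3, an exact permutation test cannot go below 0.1, so none was used.

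Levels between genes were compared per kb of the deposited gene length, which equalled the union of GENCODE 29 exons for all 10 members. The 11 lists and the members were chosen with earlier results of these data known. Genes named were all members, the 3 list genes with the smallest adjusted p in each direction, all genes of lists of 5 or fewer, and the 5 genes most like MYC. Chromosomal neighbours, the second background and the genes marked as such were chosen after values were seen.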

Additional observations from a re-analysis of the deposited data

How the results depend on the processing

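The calls of MYC, MXD3, MXD4, MLX and MLXIP held under all 17 alternatives, with log2 fold changes of -0.42 to -0.13, -0.99 to -0.80, 0.26 to 0.47, -1.174 to -1.001 and 0.84 to 1.06. MYC had its largest adjusted p, 0.0407, with limma without trend. The count of members called was 5 or 6 in every setting. Median centring moved every gene down by about 0.13 on the log2 scale, and 3713 genes were then called higher and 6666 lower, against 5010 and 5194. Signs of uncalled genes turned. The shift of -0.134 with median centring was larger in size than the main estimates of MAX (0.0558), KLF10 (0.00818) and CEBPA (0.129). With it they stood at -0.0784, -0.126 and -0.00479. With quantile normalization, signs turned for MNT (0.0670), SHMT2 (0.0630), SUPV3L1 (0.0589), CDKN1A (0.0507) and CEBPA (-0.0276), and the cause was not tested. Leaving out 1 library at a time gave log2 fold changes on both sides of 0 for MXD1 (-0.0860 to 0.0222), MNT (-0.0172 to 0.0244), KLF10 (-0.0617 to 0.0892), NOP2 (-0.502 to 0.265), SHMT2 (-0.124 to 0.0393), SUPV3L1 (-0.0358 to 0.0169), CDKN1A (-0.1705 to 0.117) and CEBPA (-0.0877 to 0.242). CCND2 fell below the filter when a resistant library was left out or the minimum was 5, so it has no value there. With the longest transcript as length, MYC over MAX was 77.0 in control libraries, and MYC over the 6 partners was 19.9 in control and 14.7 in resistant libraries.

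Replicate numbers are shared between the groups, but the labels tie no number to a shared culture, and same-numbered libraries did not deviate together (correlations of -0.0015, 0.0001 and 0.0067). With the replicate number as a block, 10175 genes were called against 10204 without it, and 6 members against 5, the addition being MXI1 (adjusted p = 0.0414). PPAN and GADD45A were also called higher with the block (adjusted p of 0.0383 and 0.0394), the latter as 1 of 3 genes repressed by MYC against 2 without it. HAUS1 was chosen for its likeness to MYC, so its call carries no weight. At -0.30, HAUS1 lost that call in DESeq2 (adjusted p = 0.0558) and in 5 of the 6 fits that left out 1 library (0.0615 to 0.0802). The lowest read count of any member in any library was 142, for MXD3.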
